A study of Mus musculus with 12 samples.

Results

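The subunits of the 5 oxidative phosphorylation complexes that are encoded in the nucleus were followed in mouse embryonic stem cells (ESCs) after knockdown of Ino80, which encodes the motor protein of the INO80 chromatin remodeller. Members were the array's non-control probes whose gene name began with Nduf followed by a, b, c, s or v, with Uqcr, with Cox and a digit between 4 and 8, or with Atp5, or was Sdha, Sdhb, Sdhc or Sdhd. This gave 113 of 41174 probes and 82 gene names, of which 35 belong to complex I, 4 to complex II, 7 to complex III, 18 to complex IV and 15 to complex V. The rule also took 3 genes that are not subunits: Ndufaf1, an assembly factor of complex I, Atp5s, now named Dmac2l, and Cox4nb, now named Emc8, which belongs to a protein complex of the endoplasmic reticulum. The array's older gene symbols are kept here. After probes that were dim in every group had been removed, 106 probes and 80 genes of the 82 remained, among 19182 genes in all. Of these 80, 79 were well above background on all 12 arrays, the exception being Cox8c. Cox4i2 was well above background on 1 array, of shIno80 at day 4, and Cox8b on 0 arrays, and neither was tested.

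J1 cells, a mouse ESC line, were infected with virus carrying a short hairpin RNA against Ino80 (shIno80) or a non-targeting hairpin (shNT) and were harvested 2, 4 or 6 days later, and each of the 6 groups held 2 single-colour arrays. For each of these days there is an shIno80 group and an shNT group. Every group received a hairpin, so no uninfected group enters a comparison. The share of cells that carried the hairpin is not known here. The labels give 1 hairpin name for Ino80, and describe the delivery as infection in the protocol and as transfection in the sample descriptions. They call the arrays of a group biological replicates without saying how the cultures were separated, so the spread behind each p-value could be partly technical. RNA came from whole cultures, in which fewer cells of a type and less RNA per cell cannot be told apart.

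Oxidative phosphorylation makes most of a respiring cell's ATP. Complex I takes electrons from NADH and complex II takes them from succinate, ubiquinone carries them to complex III, and cytochrome c carries them on to complex IV, where oxygen is reduced. The protons pumped by complexes I, III and IV drive complex V, the ATP synthase. Complex II is also an enzyme of the tricarboxylic acid cycle. A set of core proteins is encoded in mitochondrial DNA, and all other subunits are nuclear genes, some of them with tissue-specific isoforms. Pluripotent stem cells are known to rely heavily on glycolysis, and respiration is known to change when they differentiate.

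Signal is given throughout as log2 of the processed intensity minus the array's 75th percentile, and differences are shIno80 minus shNT on that log2 scale. A gene was called when limma's Benjamini-Hochberg adjusted p over all 19182 genes was under 0.05. The deposited value table and the attached scanner files tie 6 of the 12 arrays to different samples, and samples are taken from the value table's columns. When this was chosen, the Ino80 signal and the likeness of the arrays were already known. Arrays of a group then correlated at 0.9916 to 0.9946, against 0.951 to 0.9879 by the attachments. By the attachments, limma called 0 of the 80 genes on every day. Unadjusted p-values under 0.05 then numbered 5 at day 2 and 0 at days 4 and 6. Ino80 stood at 25.2%, 20.3% and 23.5% of the shNT signal at days 2, 4 and 6. Between 62.35% and 69.68% of spots were well above background on an array. All 4 arrays of a day shared 1 slide, and position on the slide went with the group and cannot be told apart from it.

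Transcripts of the oxidative phosphorylation complexes were lower in shIno80 cells than in shNT cells in many genes at days 4 and 6. At day 2 few genes were called lower, at a share near that of all genes. At day 2, 8 of the 80 genes were called lower and 1 higher, while 6.21% of all genes tested were called lower and 6.29% higher. At day 4, 39 were called lower and 1 higher, against 21.3% lower and 20.9% higher over all genes. At day 6, 49 were called lower and 0 higher, against 29.5% and 21% over all genes. In percent of the 80, the genes called lower made up 10 at day 2, 48.8 at day 4 and 61.3 at day 6.

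Over the 3 days the median difference of the 80 genes was -0.13, -0.30 and -0.49. That of all genes tested was 0.02, -0.05 and -0.14. All 8 genes called lower at day 2 were also called at day 4, and all 39 called lower at day 4 were also called at day 6. The difference lay below 0 on all 3 days in 54 of 80 genes (67.5%) and in 31.9% of all genes. In 51 genes (63.8%) it was more negative at each day than at the day before, against 33.7% of all genes. These 3 comparisons use separate arrays of both groups. The estimate of a gene's spread came from all arrays, however, and was shared by the 3 days. Calls of a gene on different days are therefore not independent. How often calls were repeated on a later day over all genes was not counted, so the repeats do not set the members apart.

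Array by array, the shIno80 arrays lay below both shNT arrays in 28 genes at day 2, 56 at day 4 and 66 at day 6. The share of all genes with that order was 21.5%, 40.1% and 45.3%. The opposite order was found in 6, 15 and 6 of the 80 genes, and in 24.9%, 35% and 31.6% of all genes. The array medians of the 80 genes, each gene centred on its mean over 12 arrays, were -0.13 and 0.02 in shIno80 and -0.04 and 0.21 in shNT at day 2. They were -0.04 and -0.07 in shIno80 and 0.22 and 0.31 in shNT at day 4. At day 6 they were -0.33 and -0.46 in shIno80 and 0.09 and 0.12 in shNT. The groups overlapped at day 2 and stood apart at days 4 and 6.

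Most members are bright on the array, and brightness went with the direction of change. Of the 80 genes, 74 lay among the 4796 brightest of all genes by mean signal. Of those 4796, 7.38% were called lower at day 2, 30.9% at day 4 and 42% at day 6, with median differences of -0.03, -0.17 and -0.28. The 74 members there had 9.46% called lower at day 2, 50% at day 4 and 63.5% at day 6, with medians of -0.13, -0.33 and -0.51. This split was added after the data were seen. After quantile normalization, which removes differences in the spread of signal between arrays, the calls were 32 lower and 8 higher at day 4 and 40 lower and 7 higher at day 6, with medians of -0.13 and -0.28. Under that setting 22.9% and 28.9% of all genes were called lower at days 4 and 6, with medians of -0.05 and -0.11, so the member medians lay 0.08 and 0.18 below those of all genes. In the deposited value table, which holds signals without background subtraction, 27 genes (33.8%) were lower and 6 higher at day 6, against 17.9% of all genes called lower. Of all calls at day 6, 62% were higher in that table and 41.6% by the processed intensity. The part of brightness in the differences was not tested further.

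Calls also depended on single arrays. In the fits below that leave out 1 array, fewer of all genes were called lower as well. At day 2, without either shIno80 array or replicate 2 of shNT, the member share called lower was close to that of all genes. The member median minus that of all genes was then -0.11, -0.19 and -0.05, against -0.14 with all arrays. Without replicate 1 of shIno80, replicate 2 of shIno80 or replicate 2 of shNT at day 2, the day 2 calls lower fell to 2, 3 and 3, and without any one array of days 4 and 6 they were 5. With the 4 arrays of day 2 alone, limma called 0 genes, with 9 at an unadjusted p under 0.05, against 20 when all arrays shared the estimate of the spread. At day 4 the calls lower also fell without replicate 2 of shIno80 or replicate 2 of shNT at that day. The member median minus that of all genes was then -0.21 and -0.22, against -0.25 with all arrays. At day 6 the calls lower fell without replicate 2 of shIno80 at that day. The member median minus that of all genes was then -0.32, against -0.35 with all arrays.

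**Figure D1:**
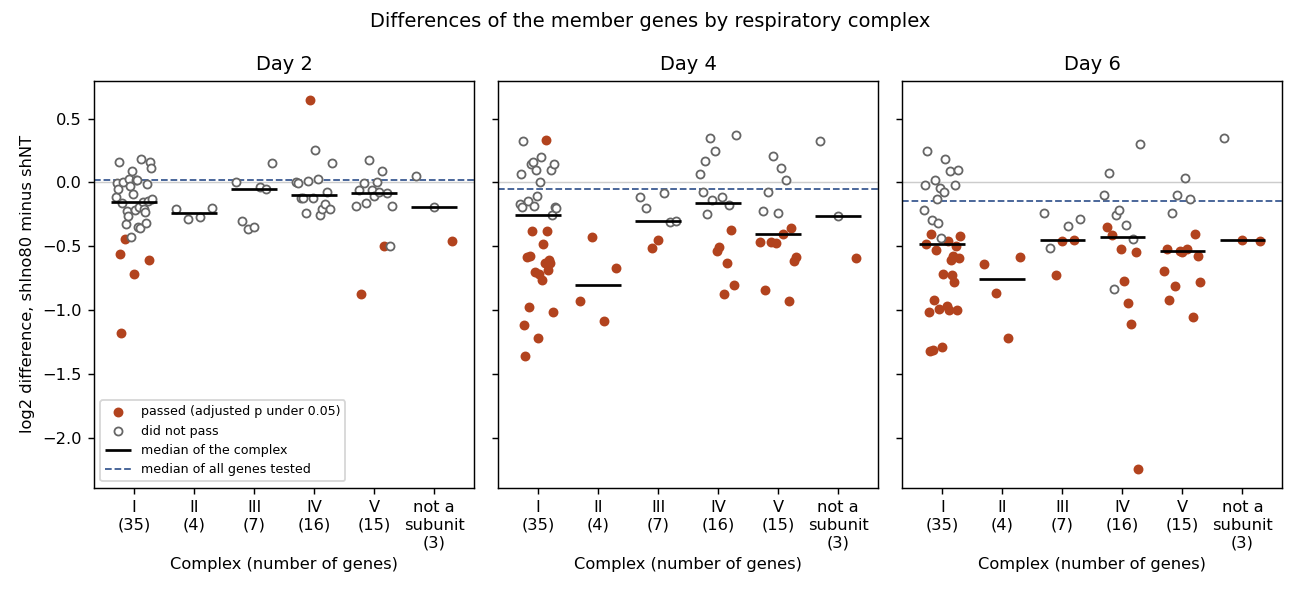
Each point is the log2 difference, shIno80 minus shNT, of 1 of the 80 genes at day 2, 4 or 6, grouped by complex, with genes that passed the test filled. The medians of complexes I to V (black bars) lie below the median of all genes tested (dashed line) in every panel, and the single filled point above 0 is Cox6b2 at day 2 and Ndufc2 at day 4.

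Complex I has a matrix arm, which takes up NADH and passes electrons through iron-sulphur clusters to ubiquinone, and a membrane arm, whose nuclear-encoded subunits are accessory. Of its 35 genes, 5 were called lower at day 2, 17 at day 4 and 21 at day 6, with median differences of -0.15, -0.26 and -0.48. Of the 7 core subunits of the matrix arm, 1, 4 and 6 were lower, of its 8 accessory subunits 2, 5 and 6, and of the 19 accessory subunits of the membrane arm 2, 8 and 9. Ndufc2 was the 1 gene of complex I called higher, at day 4.

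Ndufa2, an accessory subunit of the NADH-oxidising end of the matrix arm, had the lowest difference of all members at day 2. Its signal was 2.65 and 2.96 in shIno80 and 3.88 and 4.08 in shNT at day 2. At day 4 it was 2.79 and 2.71 in shIno80 and 4.01 and 4.21 in shNT, and at day 6 it was 2.80 and 2.74 in shIno80 and 4.03 and 4.14 in shNT. The shIno80 arrays lay far below the shNT arrays on each day, with no overlap. The differences were -1.18, -1.36 and -1.32 with an SE of 0.14, which is 2.26-fold, 2.56-fold and 2.49-fold lower in shIno80 (adjusted p = 0.00204, 0.000118 and 0.000102). From day 2 to day 4 the difference changed by -0.18 with an SE of 0.19 (adjusted p = 0.594).

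Ndufs7, the core subunit that holds the last iron-sulphur cluster before ubiquinone, had signals of 3.90 and 4.00 in shIno80 and 4.44 and 4.67 in shNT at day 2. The day 4 signals were 3.81 and 3.64 in shIno80 and 4.64 and 4.84 in shNT, and at day 6 they were 3.68 and 3.61 in shIno80 and 4.64 and 4.65 in shNT. The groups did not overlap on any day, and the shIno80 arrays were the lower ones throughout. The differences were -0.61, -1.02 and -1.0 with an SE of 0.12 (adjusted p = 0.0166, 0.000278 and 0.000227).

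The other core subunits of the matrix arm described here followed later or less. Ndufs3 had differences of -0.23, -0.61 and -0.57 (SE 0.14) and Ndufs1, the largest subunit, had -0.15, -0.38 and -0.61 (SE 0.12). Both passed at days 4 and 6 and did not pass at day 2. Ndufv1, which binds NADH, and Ndufv2, its partner in the flavoprotein part, were called at day 6 only, with differences of -0.59 (SE 0.09) and -0.42 (SE 0.09). Ndufs8, another iron-sulphur subunit, did not pass on any day and had differences of 0.16, 0.14 and 0.09 with an SE of 0.12, the shIno80 arrays lying above the shNT arrays.

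Ndufb4, an accessory subunit of the membrane arm, had signals of 3.94 and 4.00 in shIno80 and 4.61 and 4.77 in shNT at day 2. For day 4 the values were 3.44 and 3.37 in shIno80 and 4.6 and 4.66 in shNT, and at day 6 they were 3.55 and 3.45 in shIno80 and 4.78 and 4.79 in shNT. The shNT arrays stayed within a narrow range over the days and the shIno80 arrays were lower at days 4 and 6 than at day 2. The differences were -0.72, -1.22 and -1.29 with an SE of 0.10 (adjusted p = 0.00369, 3.78e-05 and 1.94e-05).

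Ndufa6, which anchors the acyl carrier protein to the matrix arm, had signals of 2.89 and 2.97 in shIno80 and 3.34 and 3.42 in shNT at day 2. At day 4 they were 2.48 and 2.33 in shIno80 and 3.41 and 3.35 in shNT, and at day 6 they were 2.37 and 2.24 in shIno80 and 3.59 and 3.64 in shNT. Again no arrays overlapped, and the distance between the groups was larger at each later day. The differences were -0.45, -0.97 and -1.31 with an SE of 0.10 (adjusted p = 0.0246, 0.000132 and 2.11e-05).

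Ndufa13, also known as GRIM19, sits where the 2 arms meet and had differences of -0.56, -1.12 and -1.01 with an SE of 0.14, all called. Its day 6 signals were 4.89 and 4.76 in shIno80 and 5.85 and 5.83 in shNT. Ndufb8 and Ndufc1, accessory subunits of the membrane arm, were called at days 4 and 6. Ndufb8 had 5.05 and 4.87 in shIno80 and 5.97 and 5.90 in shNT at day 6, a difference of -0.97 (SE 0.13). Ndufc1 had 3.33 and 3.20 in shIno80 and 4.22 and 4.32 in shNT, a difference of -1.0 (SE 0.18). Neither had overlapping groups at that day.

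Ndufc2, the partner of Ndufc1 in the membrane arm, went the other way. It had signals of 4.87 and 4.70 in shIno80 and 4.37 and 4.55 in shNT at day 4, with the shIno80 arrays above, and a difference of 0.33 with an SE of 0.11 (adjusted p = 0.0467). For Ndufc2, day 4, the call was lost under several other settings, among them median scaling (adjusted p = 0.382), and the difference was 0.09 at day 6 (adjusted p = 0.565). Among the members that did not pass on any day were Ndufa10, Ndufb6 and Ndufs5, with day 6 differences of -0.02, -0.07 and -0.02. The acyl carrier protein, Ndufab1, which also serves mitochondrial fatty acid synthesis, had 0.03, 0.16 and -0.13 (SE 0.17) by its brightest probe. Its dimmer probes that were kept had 0.75 and -0.02 at day 6, and the former passed in limma over probes (adjusted p = 0.00485).

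The remaining accessory subunits are given by their day 6 difference. Those called lower were Ndufb11 (-0.99), Ndufa7 (-0.92), Ndufs4 (-0.78), Ndufb5 (-0.72), Ndufa9 (-0.53), Ndufs6 (-0.50), Ndufa11 (-0.48), Ndufb9 (-0.46) and Ndufa3 (-0.41). Those that did not pass were Ndufb3 (-0.43), Ndufb10 (-0.32), Ndufa5 (-0.30), Ndufa1 (-0.22), Ndufb2 (-0.04), Ndufa8 (0.02), Ndufb7 (0.18) and Ndufa12 (0.24). Ndufa3 has probes that differed by up to 0.88 on the log2 scale in their differences, and Ndufab1 by up to 0.88.

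**Figure D2:**
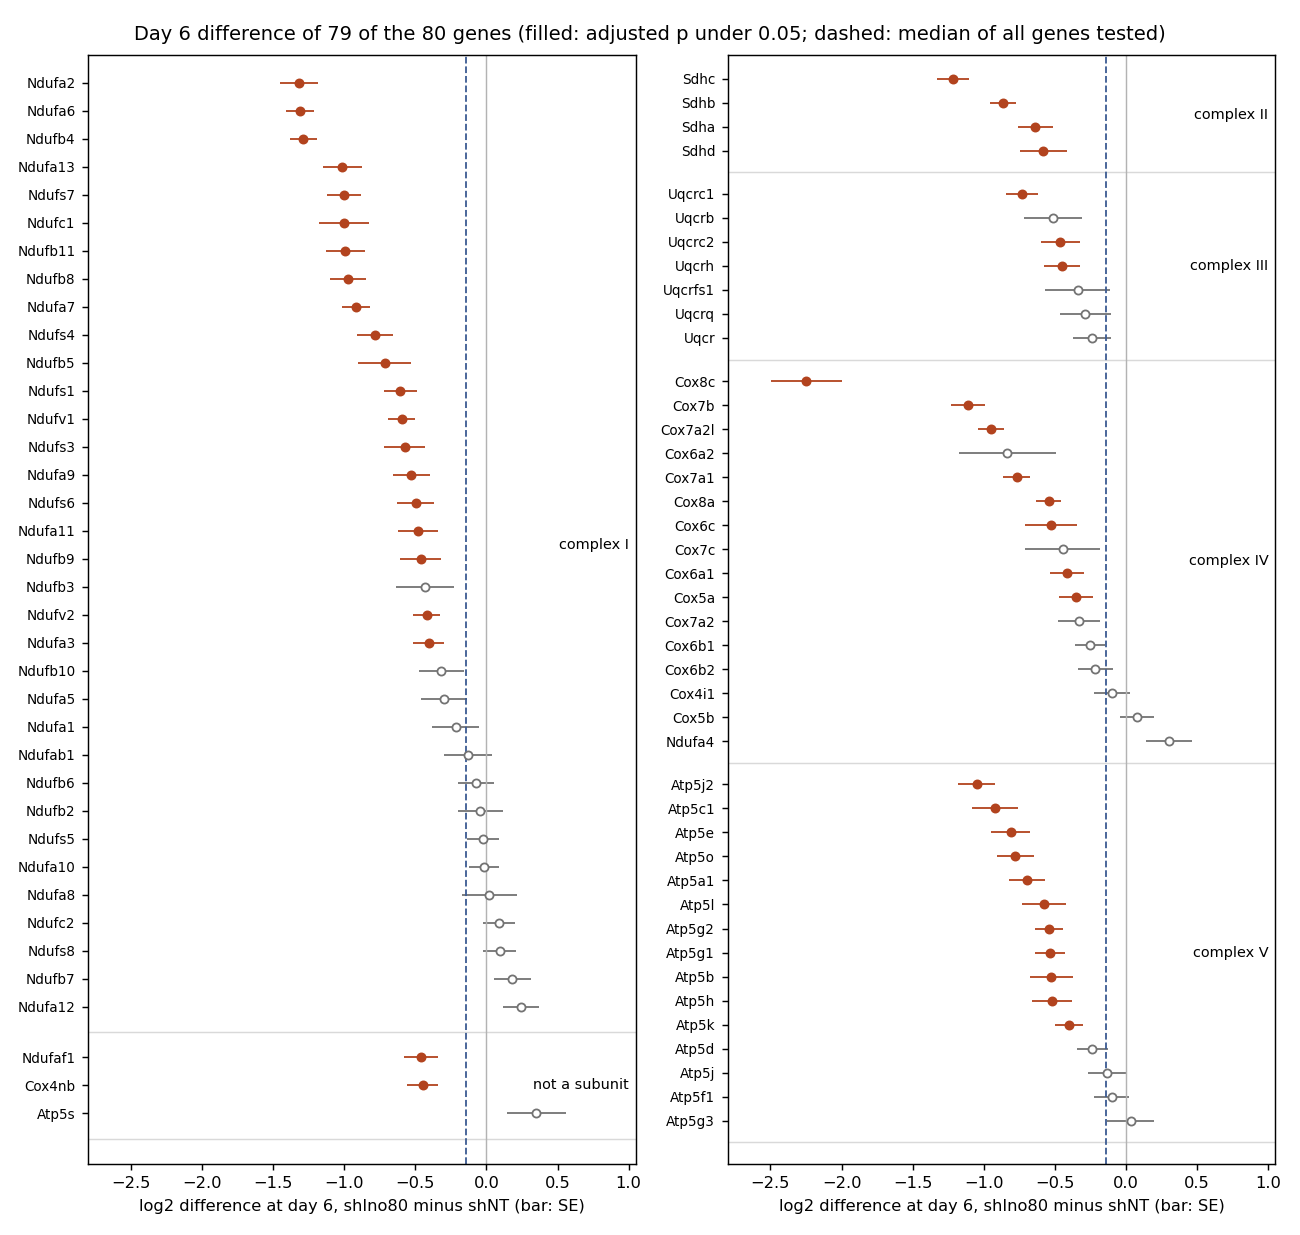
The log2 difference at day 6, shIno80 minus shNT, is drawn with its SE for 79 of the 80 genes, sorted within its complex, and filled where adjusted p was under 0.05. All 4 complex II genes are filled, the lowest point is Cox8c at -2.25, where 1 of the 2 shIno80 arrays was not well above background, and no gene right of 0 is filled.

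Complex II, succinate dehydrogenase, was the only complex in which every gene was called at both later days, each by its brightest probe. None of its 4 genes passed at day 2, where the differences lay between -0.29 and -0.20. All 4 were lower at days 4 and 6, with medians of -0.80 and -0.75. Sdhc and Sdhd anchor the enzyme in the membrane, Sdha carries the flavin that oxidises succinate, and Sdhb carries the iron-sulphur clusters.

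Sdhc had signals of 3.06 and 2.84 in shIno80 and 3.28 and 3.15 in shNT at day 2. The day 4 signals were 2.00 and 1.91 in shIno80 and 3.08 and 2.99 in shNT, and at day 6 they were 2.08 and 2.18 in shIno80 and 3.30 and 3.39 in shNT. The shNT arrays stayed near their day 2 signal while the shIno80 arrays dropped by day 4. The differences were -0.27, -1.08 and -1.22 with an SE of 0.11 (adjusted p = 0.177, 0.000146 and 5.65e-05), which at day 6 is 2.33-fold lower in shIno80. Within shIno80 cells, Sdhc fell by 1.0 between day 2 and day 4 (adjusted p = 0.000286).

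Sdha had signals of 2.75 and 2.59 in shIno80 and 2.96 and 2.80 in shNT at day 2. For day 4 the values were 2.08 and 2.09 in shIno80 and 3.12 and 2.92 in shNT, and at day 6 they were 2.50 and 2.64 in shIno80 and 3.13 and 3.29 in shNT. Its lowest arrays were those of shIno80 at day 4. The differences were -0.21, -0.93 and -0.64 with an SE of 0.12 (adjusted p = 0.341, 0.000491 and 0.00282). Another, dimmer probe of Sdha, well above background on all 12 arrays, had differences of -0.12, -0.52 and -0.31. In limma over probes it passed at day 4 (adjusted p = 0.0211) and did not pass at day 6 (adjusted p = 0.116).

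Sdhb had signals of 2.65 and 2.57 in shIno80 and 3.45 and 3.50 in shNT at day 6, and differences of -0.29, -0.43 and -0.87 with an SE of 0.09. Sdhd had 4.34 and 4.24 in shIno80 and 4.84 and 4.90 in shNT at day 6, and differences of -0.20, -0.67 and -0.58 with an SE of 0.16. The groups did not overlap for either gene at day 6. Adjusted p at day 6 was 0.000107 for Sdhb and 0.0177 for Sdhd.

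In complex III, the cytochrome bc1 complex, 0, 2 and 3 of 7 genes were called lower at days 2, 4 and 6. Uqcrc1 and Uqcrc2 encode its large core proteins. Uqcrc1 had signals of 4.95 and 5.12 in shIno80 and 5.69 and 5.83 in shNT at day 6, and differences of -0.36, -0.51 and -0.73 with an SE of 0.11. Uqcrc2 had 4.30 and 4.19 in shIno80 and 4.70 and 4.71 in shNT at day 6, and differences of -0.35, -0.45 and -0.46 with an SE of 0.14. Both were called at days 4 and 6, and their arrays did not overlap on any day.

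Uqcrfs1, the Rieske iron-sulphur protein that hands electrons to cytochrome c1, did not pass on any day, with differences of -0.03, -0.09 and -0.34 (SE 0.23). Of the small subunits, Uqcrh passed at day 6 (-0.45, adjusted p = 0.0173) and Uqcrb (-0.52), Uqcr (-0.24) and Uqcrq (-0.29) did not. Uqcrq was measured by a dim probe, because its brighter probe was marked as an outlier on 1 shIno80 array of day 2. That brighter probe, on the 11 other arrays, gave differences of -0.28, -0.17 and -0.35, none of which passed.

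Complex IV, cytochrome c oxidase, held several of the genes that did not pass. Of its 16 genes tested, 0 were lower and 1 higher at day 2, 6 were lower at day 4 and 8 at day 6. Of 11 general isoforms, 3 were lower at day 4 and 5 at day 6. Cox5a, Cox6a1, Cox6c, Cox7b and Cox8a were those called at day 6, with differences of -0.35, -0.41, -0.53, -1.11 and -0.54.

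Cox7b, a small membrane subunit, had signals of 4.17 and 4.36 in shIno80 and 4.37 and 4.58 in shNT at day 2. At day 4 they were 4.17 and 4.07 in shIno80 and 4.68 and 4.82 in shNT, and at day 6 they were 3.62 and 3.52 in shIno80 and 4.62 and 4.73 in shNT. The groups stood close together at day 2 and furthest apart at day 6. The differences were -0.21, -0.63 and -1.11 with an SE of 0.12 (adjusted p = 0.329, 0.00333 and 0.000134).

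Cox4i1 and Cox5b, regulatory subunits close to the catalytic core, showed no such distance. Cox4i1 had signals of 6.56 and 6.43 in shIno80 and 6.64 and 6.55 in shNT at day 6, with overlapping groups on every day and differences of 0.00, 0.07 and -0.10 (SE 0.13). Cox5b had 5.85 and 5.71 in shIno80 and 5.70 and 5.70 in shNT at day 6, and differences of -0.12, 0.17 and 0.08 (SE 0.12). Neither gene was called on any day. Ndufa4, once counted with complex I and now placed in complex IV, had differences of 0.15, 0.37 and 0.30 (SE 0.16) and did not pass either. Cox5a, the partner of Cox4i1, was called at day 6 (adjusted p = 0.0353) by its bright probe, while another, dimmer probe of this gene did not go the same way, and after quantile normalization its difference was 0.05.

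**Figure D3:**
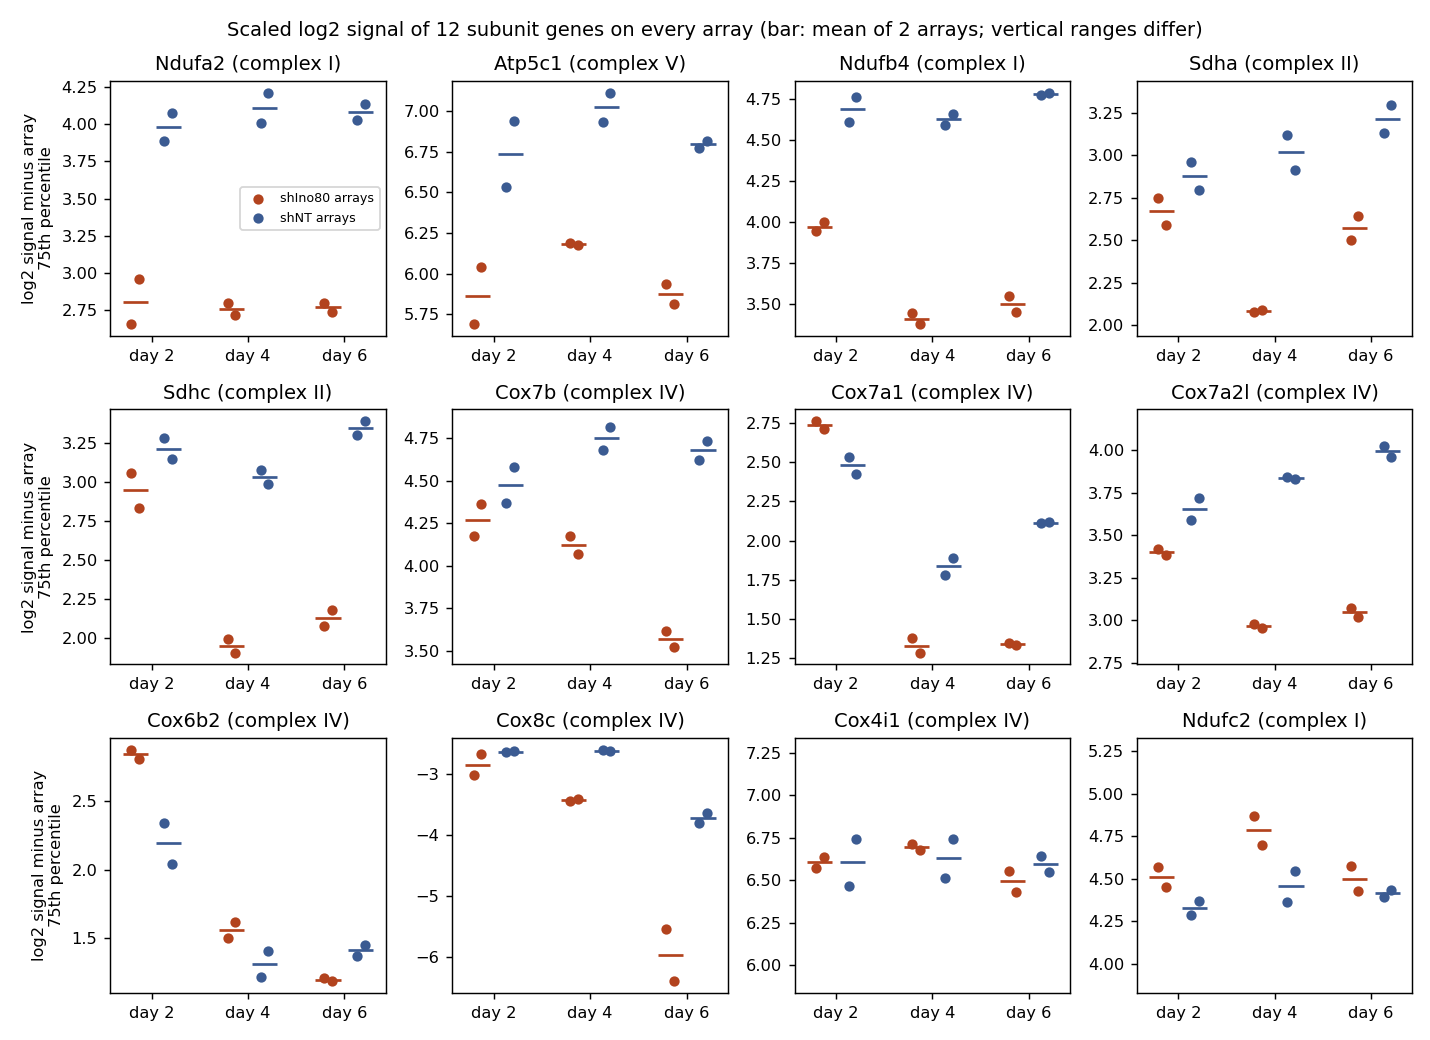
Each panel gives the scaled log2 signal of 1 gene on the 12 arrays, with shIno80 and shNT side by side at each day and a bar at the mean of the 2 arrays, and the vertical range differs between panels. Ndufa2, Ndufb4 and Atp5c1 are well apart from day 2 on, Sdhc, Sdha and Cox7a2l are close at day 2 and well apart from day 4 on, and the 2 groups overlap for Cox4i1.

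Tissue isoforms of complex IV replace the general ones in particular tissues: Cox6a2, Cox7a1 and Cox8b in heart and skeletal muscle, Cox4i2 in lung, and Cox6b2 and Cox8c in testis. None of the 4 that were bright enough to test was called higher at day 4 or day 6. Cox7a1 had signals of 2.76 and 2.71 in shIno80 and 2.53 and 2.43 in shNT at day 2. The day 4 signals were 1.38 and 1.28 in shIno80 and 1.78 and 1.89 in shNT, and at day 6 they were 1.35 and 1.34 in shIno80 and 2.11 and 2.12 in shNT. The order of the groups turned between day 2 and day 4. The differences were 0.26, -0.51 and -0.77 with an SE of 0.09 (adjusted p = 0.118, 0.00265 and 0.000224), and the signal fell in both arms between days 2 and 4, by 1.41 in shIno80 and by 0.64 in shNT.

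Cox6b2 had signals of 2.88 and 2.81 in shIno80 and 2.34 and 2.04 in shNT at day 2. For day 4 the values were 1.5 and 1.62 in shIno80 and 1.22 and 1.40 in shNT, and at day 6 they were 1.20 and 1.18 in shIno80 and 1.37 and 1.45 in shNT. It was the 1 member called higher at day 2, and both arms were lower at the later days. The differences were 0.65, 0.25 and -0.22 with an SE of 0.12 (adjusted p = 0.0148, 0.145 and 0.184). For Cox6b2, day 2, the call was lost without replicate 1 or replicate 2 of shIno80 at that day (adjusted p = 0.0704 and 0.0543).

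Cox8c had signals of -3.43 and -3.40 in shIno80 and -2.59 and -2.62 in shNT at day 4. At day 6 they were -5.53 and -6.39 in shIno80 and -3.79 and -3.64 in shNT. The 2 shIno80 arrays of day 6 were the lowest of all 12, and 1 of them was not well above background. The difference was -0.80 at day 4 and -2.25 at day 6 with an SE of 0.25 (adjusted p = 0.0295 and 0.000142), and within shNT it also fell, by 1.11, between days 4 and 6. With a signal at background behind it, the size of the day 6 difference is uncertain. It was -0.86 in the deposited value table, and -0.54 after normexp background correction, where it did not pass (adjusted p = 0.834). Cox6a2 did not pass on any day, with differences of -0.24, 0.35 and -0.83 (SE 0.34).

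The general partners of these isoforms were well above background on all 12 arrays. Cox6a1 had differences of -0.13, -0.24 and -0.41, Cox6b1 had 0.01, -0.14 and -0.25, Cox7a2 had 0.03, -0.12 and -0.33 and Cox8a had -0.08, -0.37 and -0.54. Of these 4, Cox8a was called at days 4 and 6 and Cox6a1 at day 6. Cox7a2l, a paralogue of Cox7a2 that helps to join complexes III and IV into supercomplexes, was called at both later days. Its signals were 2.98 and 2.95 in shIno80 and 3.84 and 3.83 in shNT at day 4, and 3.07 and 3.02 in shIno80 and 4.03 and 3.96 in shNT at day 6. The differences were -0.25, -0.87 and -0.95 with an SE of 0.09 (adjusted p = 0.113, 0.000136 and 6.32e-05).

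**Figure D4:**
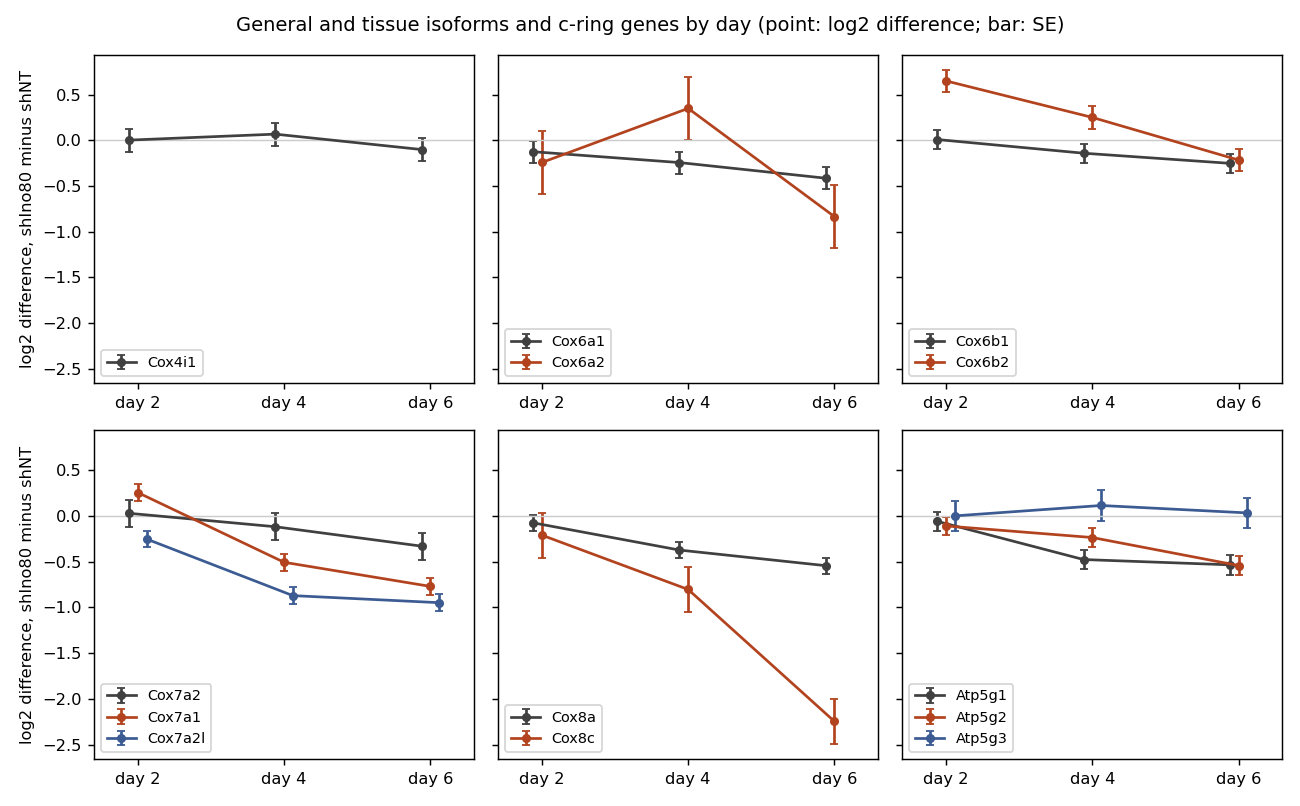
Lines give the log2 difference, shIno80 minus shNT, with its SE at days 2, 4 and 6 for the isoform families of complex IV and for the c-ring genes of complex V. Cox6b2 starts at 0.65, Cox8c ends at -2.25 with 1 shIno80 array not well above background, Cox7a2l lies below Cox7a2 on all 3 days, and Cox4i1 and Atp5g3 stay near 0.

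Complex V, the ATP synthase, has a catalytic F1 head with a rotating central stalk, a peripheral stalk that holds the head still, and a membrane part with the c ring. Of its 15 genes, 2 were called lower at day 2, 9 at day 4 and 11 at day 6, with medians of -0.09, -0.40 and -0.53. Of the 5 genes of the head and central stalk, 1, 3 and 4 were lower, and of the 4 genes of the peripheral stalk, 0, 2 and 2. All 3 other genes of the membrane part were lower at days 4 and 6.

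Atp5c1, the gamma subunit that turns in the central stalk, had signals of 5.69 and 6.04 in shIno80 and 6.53 and 6.94 in shNT at day 2. At day 4 they were 6.19 and 6.18 in shIno80 and 6.93 and 7.11 in shNT, and at day 6 they were 5.93 and 5.81 in shIno80 and 6.78 and 6.81 in shNT. The groups were apart on every day by about the same distance. The differences were -0.87, -0.84 and -0.92 with an SE of 0.16 (adjusted p = 0.0137, 0.0037 and 0.0019). The change of the difference between days 2 and 4 was 0.03 with an SE of 0.23 (adjusted p = 0.956), and for Atp5c1, day 2, the call was lost without replicate 1 of shIno80 at that day (adjusted p = 0.0702).

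Atp5a1 and Atp5b, which form the catalytic ring of the head, reached differences of -0.70 (SE 0.13) and -0.53 (SE 0.15) at day 6. Atp5a1 had 6.60 and 6.41 in shIno80 and 7.19 and 7.22 in shNT at that day. Atp5b had 7.43 and 7.15 in shIno80 and 7.82 and 7.81 in shNT. No arrays overlapped for either gene. Atp5a1 was also called at day 4, while Atp5b was not by its brightest probe. The dimmer probes of Atp5b had differences of -0.35 and -0.44 at day 4 and passed in limma over probes (adjusted p = 0.0274 and 0.0255). Atp5e, the epsilon subunit, was lower at day 6 (-0.81), and Atp5d, the delta subunit, did not pass (-0.24).

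Atp5j2, subunit f of the membrane part, was called on all 3 days, with differences of -0.50, -0.93 and -1.05 and an SE of 0.13. Its day 6 signals were 4.20 and 4.13 in shIno80 and 5.17 and 5.27 in shNT, with no overlap. The c ring, through which protons pass, is built from 1 protein encoded by 3 genes. Atp5g1 had differences of -0.06, -0.48 and -0.53 (SE 0.11), Atp5g2 had -0.11, -0.24 and -0.54 (SE 0.10), and Atp5g3 had 0.00, 0.11 and 0.03 (SE 0.16). Atp5g1 was called at days 4 and 6, Atp5g2 at day 6 and Atp5g3 on no day, and its day 6 signals of 7.06 and 7.03 in shIno80 overlapped those of 6.99 and 7.04 in shNT. These 3 genes encode the same mature protein, so their probes read its separate transcripts.

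In the peripheral stalk, Atp5o, which caps the head, was lower at day 6 (-0.78), as was Atp5h (-0.52), while Atp5f1 (-0.10) and Atp5j (-0.13) did not pass. Atp5l (-0.58) and Atp5k (-0.40) of the membrane part were called lower at that day. Of the 3 members that are not subunits, Ndufaf1 was called lower on all 3 days (-0.46, -0.59 and -0.46 with an SE of 0.12). Its day 2 signals were 1.29 and 1.30 in shIno80 and 1.63 and 1.87 in shNT. Cox4nb was lower at day 6 (-0.45) and Atp5s did not pass on any day (0.35 at day 6).

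The change of the knockdown difference between days was tested directly. Between days 2 and 4, 6 of the 80 genes had a difference that became more negative and 0 had one that became more positive, against 7.15% and 8.17% of all genes. The share of members that became more negative was thus close to that of all genes. The 6 genes were Sdhc, Cox7a1, Sdha, Cox7a2l, Ndufa6 and Ndufb4. The count was 3 under median scaling. It was 1 without replicate 2 of shIno80 or replicate 1 of shNT at day 4, and 3 without replicate 1 of shIno80 at day 2, replicate 1 of shIno80 at day 4 or replicate 2 of shNT at day 4. Between days 4 and 6, 0 genes passed in either direction in limma, with 8 at an unadjusted p under 0.05, against 2.25% more negative and 1.55% more positive over all genes. The difference at day 6 was below that at day 4 in 67 of the 80 genes, and in 11275 of the 19182 genes tested. The median change was -0.14 in the members and -0.08 over all genes.

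Within each arm, day and slide cannot be told apart. In shNT cells, 2 members fell between days 2 and 4 and 0 rose, and 3 fell and 0 rose between days 4 and 6, against 6.73%, 7.63%, 8.78% and 7.84% of all genes. In shIno80 cells, 12 fell and 4 rose between days 2 and 4, against 18.1% and 20.7% of all genes, and 16 fell and 1 rose between days 4 and 6, against 17% and 8.21%. Atp5s, Ndufa4, Ndufa8 and Ndufb7 were the 4 that rose, by 0.77, 0.54, 0.72 and 0.43. The 1 that rose later was Sdha, by 0.49. The shIno80 count lower between days 4 and 6 was 1 without either shIno80 array of day 4 or replicate 2 of shIno80 at day 6, 4 without replicate 1 of shIno80 at day 6, and 30 without either shNT array of day 2.

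Upstream sequence of several members is shown because NRF1, a factor named for its sites in respiratory genes, has a known palindromic binding sequence, and members with and without these letters can be set beside their differences. Windows ran from 250 bases before to 50 bases after each gene start in RefSeq, build GRCm38.p6, and 67 of the 82 members had an entry. The letters searched were GCGC, A, any base and GCGC in a row for NRF1, CCGGAAG for ETS factors such as GABPA, AAGATGGCG for YY1 and TCAAGGTCA for ERR receptors, on both strands. Capitals mark the NRF1 letters, read on the gene's strand or as their reverse complement, at the place nearest the start where a window held them more than once. The first 4 stretches come from genes called lower at day 6 and the last 2 from genes that did not pass.
Ndufb4, chr16:37654369-37654425, minus strand: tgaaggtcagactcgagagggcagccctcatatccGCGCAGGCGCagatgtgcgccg
Atp5c1, chr2:10080433-10080484, minus strand: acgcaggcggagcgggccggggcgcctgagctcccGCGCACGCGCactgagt
Sdha, chr13:74350241-74350285, minus strand: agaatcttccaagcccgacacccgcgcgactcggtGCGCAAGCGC
Sdhd, chr9:50603884-50603963, minus strand: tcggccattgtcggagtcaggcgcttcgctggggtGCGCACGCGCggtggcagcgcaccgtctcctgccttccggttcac
Ndufs5, chr4:123718240-123718319, minus strand: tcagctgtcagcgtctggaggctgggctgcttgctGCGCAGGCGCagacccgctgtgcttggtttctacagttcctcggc
Ndufa8, chr2:36049339-36049403, minus strand: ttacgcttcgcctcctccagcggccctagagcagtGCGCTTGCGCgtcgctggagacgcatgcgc

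The NRF1 letters stood in the windows of 17 of 67 members (25.4%), against 5.19% of the 27025 genes in the table and 9.67% of the 12385 genes that were tested here and had an entry. By complex the counts were 7 of 31, 2 of 3, 1 of 4, 1 of 13 and 6 of 14 for complexes I to V. The ETS letters were in 17 members (25.4%, against 9.93% of the table and 16.9% of the genes tested). The YY1 letters were in 7 (10.4%, against 1.64% and 2.95%) and the ERR letters in 2 (2.99%, against 0.466% and 0.315%). The capitals begin 22 bases before the start in Ndufb4, 17 in Atp5c1 and 10 in Sdha. In Sdhd they begin 79 bases before it, in Ndufs5 98 and in Ndufa8 30.

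Of the 17 members with the NRF1 letters, 13 were called lower at day 6, with a median difference of -0.52. Of the 49 members with an entry and without them, 26 were called lower, with a median of -0.43. At day 4 the counts were 9 of 17 and 21 of 49, with medians of -0.35 and -0.19. Members with the letters included both Ndufa6 (-1.31 at day 6) and Ndufb4 and Atp5c1, shown above, as well as Atp5g3 (0.03), Ndufs5 (-0.02) and Ndufa8 (0.02). For the ETS letters, 11 of 17 members with them and 28 of 49 without were called lower at day 6, with medians of -0.45 and -0.48. For YY1 these were 6 of 7 and 33 of 59, with medians of -0.78 and -0.43. For ERR they were 1 of 2 and 38 of 64, with medians of -0.27 and -0.46. No difference between members with and without a motif was tested. The letters are a description of these windows and not evidence of binding.

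Over all genes tested, 6.21%, 21.3% and 29.5% were called lower at days 2, 4 and 6, and 6.29%, 20.9% and 21% higher. The lists that follow are to be read beside those shares. Genes that encode regulators of mitochondrial biogenesis were measured on the same arrays. Of 20, 1 was lower and 1 higher at day 2, 10 were lower and 1 higher at day 4, and 10 were lower and 1 higher at day 6, with medians of -0.03, -0.33 and -0.49. Ppargc1b, a coactivator of respiratory genes, had differences of -0.60, -1.57 and -1.33 with an SE of 0.11 and was called on all 3 days. Gabpa, the DNA-binding part of an ETS factor, was called at days 4 and 6 (-0.82 and -0.94), and Tefm, a mitochondrial transcription elongation factor, was called at days 4 and 6 (-0.79 and -1.0). Mterf1a, a mitochondrial transcription termination factor, was lower at days 4 and 6 (-0.55 and -1.09). Esrra, an ERR receptor, was higher at days 2 and 4 (0.44 and 0.43), and Polg, the mitochondrial DNA polymerase, at day 6 (0.50).

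Of 37 assembly factors measured, 5 were lower and 1 higher at day 2, 15 were lower and 5 higher at day 4, and 19 were lower and 3 higher at day 6, with medians of -0.06, -0.28 and -0.38. Uqcc1, which assembles complex III, had -1.19, -1.85 and -1.62 with an SE of 0.09. Tmem126b, which assembles complex I, had -0.94, -1.59 and -1.49 with an SE of 0.14. Both were called on all 3 days, as was Timmdc1, another complex I factor, which was higher by 0.60, 1.00 and 0.42 with an SE of 0.15.

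Among 18 genes of the tricarboxylic acid cycle and pyruvate dehydrogenase, 0, 5 and 11 were lower and 1, 2 and 1 higher at days 2, 4 and 6. The medians were 0.02, -0.13 and -0.39. Suclg2, a succinyl-CoA ligase subunit, was lower at days 4 and 6 (-1.46 and -1.58), and Idh2, the mitochondrial NADP-dependent isocitrate dehydrogenase, at day 6 (-0.98). Cs, citrate synthase, was called higher at day 2 (0.65) and Dlst, of the 2-oxoglutarate dehydrogenase complex, at days 4 and 6 (0.57 and 0.54).

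Of 20 electron carriers and related genes, 3, 4 and 8 were lower and 0, 5 and 3 higher, with medians of -0.12, -0.09 and -0.40. At day 4 these counts were near the shares of all genes, 21.3% lower and 20.9% higher. Etfb, a subunit of the electron transfer flavoprotein, had -0.86, -1.62 and -1.84 with an SE of 0.12 and was called on all 3 days, while Etfdh, which passes its electrons to ubiquinone, was higher by 0.72 and 1.02 at days 4 and 6. Slc25a4, the adenine nucleotide carrier of heart and muscle, was higher by 0.55 and 0.86 at those days. Cyct, the testis cytochrome c, was lower at day 6 (-1.43). The 13 genes of mitochondrial DNA were not analysed here.

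Markers of cell identity moved on the same days. Of 7 ESC markers, 2 were lower at day 2 and all 7 at days 4 and 6, with a median of -2.01 at day 4 and -1.85 at day 6. Their summed signal, in multiples of the array's 75th percentile, was 219 to 221 in shIno80 and 321 to 338 in shNT at day 2. It was 67.5 to 76.7 in shIno80 and 280 in shNT at day 4, and 73.8 to 87.7 in shIno80 and 290 to 334 in shNT at day 6. Of 10 trophectoderm markers, 2, 9 and 10 were higher at days 2, 4 and 6, and their sum at day 6 was 508 to 531 in shIno80 and 16.9 to 21.8 in shNT. The ESC markers and the trophectoderm markers were well above background in every group.

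The other marker lists moved in both directions, while 29.5% of all genes were called lower and 21% higher at day 6. Of 9 fibroblast markers, 4 were higher and 3 lower at day 6, with sums of 9.69 to 10.2 in shIno80 and 15.2 to 16 in shNT. Of 11 striated muscle markers, 4 were higher and 2 lower at day 6, with sums of 6.11 to 7.7 in shIno80 and 1.44 to 1.47 in shNT. Of 6 germ cell markers, 2 were higher and 3 lower, with sums of 5.41 to 6.28 in shIno80 and 3.59 to 3.72 in shNT. The median differences at day 6 were 1.12 for fibroblast, -0.24 for striated muscle and -0.71 for germ cell markers. Each median went opposite to the sum of its list, so the sums do not describe the typical marker. The part of any of these cell types in the differences of the respiratory genes was not tested.

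A few subunits stand on the array under clone names and were not taken by the rule. Their values, looked up after the files had been seen, are given as a supplement. Ndufv3 of complex I had differences of -0.16, -0.78 and -1.21, Uqcr10 of complex III had -0.40, -1.06 and -1.07, and Cox7b2, an isoform of Cox7b, had -1.27, -1.92 and -2.0. All 3 were called at days 4 and 6, and Uqcr10 was also called at day 2. Cox7b2 was dim, with signals of -5.77 and -6.94 in shIno80 and -4.22 and -4.48 in shNT at day 6. With an SE of 0.37, the size of its differences is uncertain. Atp5md and Atp5mpl of complex V had -0.11 and -0.18 at day 6 and did not pass.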

How the data were processed

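The deposited scanner files hold, for each spot, an intensity that Feature Extraction 9.5.3.1 background-subtracted and detrended within the array, per the file headers. The labels name Cy5, while the files hold green columns. Log2 values fill the deposited table, where each column is the mean intensity of 1 scanner file times a factor (relative tolerance 1e-06) without background subtraction. No source used here gives the basis of those factors. From the processed intensity, log2 values were computed here and the 75th percentile of each array was subtracted. Probes with a spot marked as an outlier (125) were dropped, and a probe was kept if it was well above background in both samples of some group. A gene took its brightest probe. Of 21 members with several probes, 15 were called on some day, and all probes went the gene's way in 14. Gene names were updated with RefSeq (GRCm38.p6).

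A model with 1 mean per group was fitted to 12 arrays with limma 3.58.1 in R 4.3.3 (6 residual and 2.19 prior degrees of freedom). Each contrast was adjusted by Benjamini-Hochberg over 19182 genes, with 0.05 as threshold, and the scripts were tested on simulated data. Genes named with array values were isoforms, core subunits and the 6 strongest others each way per day. Members and lists were chosen with earlier results of these data known. Other scalings, backgrounds, filters, probe choices, the value table, the attachments and array omissions were tried. The values of 1 member are not reported here, though it is in the counts and medians. Upstream windows came from RefSeq's promoter table (GRCm38.p6), and no other genome sequence was read. The number of arrays limits the precision.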

Additional observations from a re-analysis of the deposited data

Results flagged for a closer look

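For 6 of the 80 genes the knockdown difference itself differed between day 4 and day 2 in limma (adjusted over all genes), each becoming more negative, against 7.15% of all genes. That share of the members was close to the share of all genes, so the count does not set the members apart. The count was 3 under median scaling. It was 1 without replicate 2 of shIno80 or replicate 1 of shNT at day 4, and 3 without replicate 1 of shIno80 at day 2, replicate 1 of shIno80 at day 4 or replicate 2 of shNT at day 4. The change was -0.81 for Sdhc (SE 0.16, adjusted p = 0.0126), -0.76 for Cox7a1 (SE 0.13, adjusted p = 0.00741) and -0.72 for Sdha (SE 0.17, adjusted p = 0.0276). It was -0.62 for Cox7a2l (SE 0.13, adjusted p = 0.0151), -0.53 for Ndufa6 (SE 0.14, adjusted p = 0.0403) and -0.5 for Ndufb4 (SE 0.14, adjusted p = 0.0415). In Cox7a1 both shIno80 arrays lay above both shNT arrays at day 2 and below them at days 4 and 6. In the other 5 genes the shIno80 arrays lay below on all 3 days. Between days 4 and 6 none of these 6 passed the same test, with changes from -0.34 for Ndufa6 to 0.29 for Sdha.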

How the results depend on the processing

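The scaling, background, filter, probe and array choices were varied one at a time, and 2 background or marking alternatives and the brighter Uqcrq probe were added after the data were seen. Lower calls at days 2, 4 and 6 were 9, 40 and 57 with the replicate block (11.2%, 50% and 71.2%). The share of all genes called lower under that setting was 9.33%, 25.5% and 33.8%, so the day 2 share was near it. Higher calls with the block were 3 and 2 at days 4 and 6. Within arms the block gave 14 higher in shNT between days 2 and 4, 0 lower in shNT between days 4 and 6, 11 higher in shIno80 between days 2 and 4, and 10 lower and 0 higher in shIno80 between days 4 and 6. The replicate numbers do not pair samples by the labels, and same-numbered deviations correlated at 0.2959, 0.1173 and 0.0832 over genes at days 2, 4 and 6. The cause of the changes below was not tested. For counts within arms and for changes between days, the shares of all genes under each setting are not given here. Those counts therefore do not set the members apart.

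Median scaling moved the median of all genes at day 4 to -0.19, and the member median at day 4 was -0.45. Calls were 5 lower at day 2 (6.25%, against 5.37% of all genes) and 0 higher at day 4. The change between days 2 and 4 gave 3 lower. Within arms, median scaling gave 2 higher in shIno80 between days 2 and 4, 1 lower in shIno80 and 1 lower in shNT between days 4 and 6. By quantile normalization the medians at days 4 and 6 were -0.13 and -0.28, calls higher were 2, 8 and 7 at days 2, 4 and 6, and the changes between days gave 1 higher and then 1 lower. Within arms it gave 23 lower and 8 higher, then 9 lower and 2 higher in shIno80, and 4 higher in shNT between days 4 and 6. The difference of Cox5a, day 6, was 0.052. The deposited value table gave 27 lower and 6 higher at day 6, a median of -0.24, and within arms 10 higher, then 1 lower and 4 higher in shIno80, and 4 higher in shNT between days 2 and 4.

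Normexp gave 0, 4 and 18 lower (2, 16 and 39 at an unadjusted p under 0.05) and 0 higher at days 2 and 4, against 0.0261%, 4.45% and 8.96% of all genes called lower, a day 2 median of 0.22 beside -0.30 over all genes, 0 for the change between days 2 and 4, and within arms 2 lower and 0 higher, then 0 and 0, in shIno80 and 0 lower in shNT over both intervals. Its fitted background mean ran from -897.6 to -12.5. With the lowest 0.1% of spots raised, calls were 0 higher at day 4, 7 higher, then 29 lower and 2 higher in shIno80, and 2 higher, then 7 lower in shNT. Without the filter on dim probes, calls were 4 lower at day 2 (4.88%, against 2.7% of all genes) and 0 higher at day 4. The change between days 2 and 4 then gave 3 lower. Within arms there were 2 higher, then 4 lower and 0 higher in shIno80, and 0 lower in shNT between days 4 and 6. With probes well above background on all arrays, calls were 7 higher, then 26 lower in shIno80, and 2 higher, then 1 higher in shNT. In limma the 4 arrays of day 2 alone gave 0 calls either way (9 at an unadjusted p under 0.05).

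With 1 array left out, lower calls ranged from 2 to 10 at day 2, 22 to 40 at day 4 and 31 to 50 at day 6, and higher calls from 0 to 1, 0 to 2 and 0 to 0. The share of all genes called lower changed in these fits as well, so the counts alone do not set the members apart. Medians ranged from -0.23 to -0.004, -0.38 to -0.25 and -0.55 to -0.43. The change between days 2 and 4 ranged from 1 to 6 lower and 0 to 1 higher, and that between days 4 and 6 from 0 to 1 lower. In shNT the ranges were 2 to 3 lower and 0 to 14 higher, then 0 to 7 lower and 0 to 1 higher. In shIno80 they were 9 to 11 lower and 0 to 8 higher, then 1 to 30 lower and 0 to 1 higher.

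When samples were taken from the file attachments, limma called 0 members in every comparison (5, 0 and 0 at an unadjusted p under 0.05 at days 2, 4 and 6), and the medians were 0.222, 0.0408 and -0.0287. At day 2 the differences of the named members that turned sign were 0.38 for Atp5c1, 0.28 for Ndufa13, 0.25 for Ndufa2, 0.19 for Atp5j2, 0.16 for Ndufs7, 0.13 for Ndufaf1, 0.10 for Ndufb4, 0.0777 for Ndufa6 and -0.19 for Cox6b2. At day 4 they were 0.0823 for Atp5c1, 0.085 for Atp5g1, 0.0731 for Ndufa13, 0.0626 for Ndufa2, 0.0629 for Uqcrc1, 0.0499 for Ndufaf1, 0.0432 for Ndufb8, 0.0384 for Uqcrc2, 0.026 for Ndufs3, 0.026 for Ndufc1, 0.023 for Sdhd, 0.0175 for Ndufs1, 0.0146 for Cox7b, 0.0093 for Cox7a1, 0.0085 for Ndufs7, 0.0013 for Sdhb and 4e-04 for Cox8c. At day 6 they were 0.15 for Sdha, 0.15 for Uqcrc1, 0.095 for Sdhc, 0.028 for Ndufs1, 0.0255 for Ndufa2, 0.024 for Cox8a, 0.019 for Atp5j2, 0.0072 for Cox7b and, for Atp5g1, day 6, 0.0042.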
